A study of Mus musculus with 8 samples.

Results

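Translation initiation factors were followed by their mRNA levels in mouse oocytes and in cultured pluripotent cells. The group holds the 48 genes whose symbol begins with Eif1 to Eif6 and that have a protein-coding transcript, without Eif4enif1, Eif4e1b, Eif2s3y and the Eif2ak kinases, out of 48440 genes listed, of which 21989 have a protein-coding transcript. All 48 passed the filter on low counts. By role they are 6 scanning and start codon factors, 5 factors of initiator tRNA delivery, 5 subunits of the exchange factor eIF2B, 14 eIF3 genes, 5 eIF4A helicases and cofactors, 3 cap-binding proteins, 3 eIF4G scaffolds, 3 eIF4E-binding proteins, 2 factors of subunit joining and the large subunit, and 2 eIF5A genes.

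Initiation begins when the small ribosomal subunit, held by eIF1, eIF1A and eIF3, takes up the initiator tRNA from eIF2 with GTP and is brought to the mRNA cap by eIF4E, the scaffold eIF4G and the helicase eIF4A. It scans to the start codon, eIF5 triggers GTP hydrolysis on eIF2, eIF5B joins the large subunit, and eIF2B recharges eIF2. Full-grown oocytes transcribe little, and maturation to metaphase proceeds on stored mRNAs, many of which are translated or destroyed in a set order.

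The 8 libraries were made in 4 groups of 2. MII oocytes, arrested at metaphase of the second meiotic division, were set against GV oocytes, arrested earlier with an intact germinal vesicle. Per the labels, donor mice had received PMSG at 5 units and, 48 h later, an injection whose agent is not named, and oocytes were held with 2 µM milrinone, an inhibitor of phosphodiesterase that keeps meiosis arrested. The MII label carries the same text as the GV label and gives no maturation step. EpiC, epiblast-like cells made in culture, were set against ESC, embryonic stem cells. The labels of both carry 1 text, by which ESC were grown with 15% FBS, LIF and the inhibitors PD0325901 and CHIR99021, and EpiC were made from plated ESC by withdrawing LIF and the inhibitors after 24 h and collecting about 56 h later. Nothing in the labels tells if the 2 libraries of a group stem from different mice or culture dishes, so a p speaks to the spread among libraries, which may be technical.

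Library totals ran from 47463546 to 196788239 estimated counts, and replicate 2 was the deeper one in every group. Of 12 oocyte markers, 11 reached 1 TPM in both MII libraries and 11 in both GV libraries, with summed levels of 25700 to 34750 TPM in MII and 27250 to 27670 TPM in GV, against at most 11.98 TPM in any EpiC or ESC library. Naive pluripotency markers summed to 178.5 to 342.5 TPM in EpiC and 1985 to 2549 TPM in ESC, and formative epiblast markers summed to 188 to 695 TPM in EpiC and 49.3 to 81.8 TPM in ESC. Markers of cumulus and granulosa cells summed to 55 to 73.6 TPM in MII and 33.5 to 176 TPM in GV. Most of the MII sum was Cyp19a1 (47.4 and 44.5 TPM in replicates 1 and 2), which had 23.4 and 18.3 TPM in GV. The higher GV sum was that of replicate 2. There Inha had 104.5, Hsd3b1 22.9 and Inhba 12.4 TPM, against 4.66, 0.417 and 0.446 TPM in GV replicate 1. The 12 fibroblast markers summed to 183.5 to 274 TPM in EpiC and 478 to 654 TPM in ESC. Of them, 4 reached 1 TPM in both EpiC libraries and 3 in both ESC libraries. Most of the ESC sum was Fn1 (461 and 383 TPM in replicates 1 and 2) and Vim (189 and 90.7 TPM). Most of the EpiC sum was Tagln (134 and 60.04 TPM) and Vim (89.2 and 90.6 TPM). Col1a1, Col1a2 and Col3a1 were at most 1.04 TPM in any EpiC or ESC library. The part of cumulus, granulosa or fibroblast cells in the results was not tested. A single gene model, Gm42418, took 22.7% of the counts of EpiC replicate 2 and 14.7% of those of ESC replicate 2, against at most 3.03% elsewhere, which lowers the TPM of all other genes in those 2 libraries. Its share was larger in replicate 2 of every group. Replicates 1 and 2 had 0.0220% and 1.66% in GV and 0.151% and 3.03% in MII. Replicate 1 had 0.0255% in EpiC and 0.0306% in ESC.

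Levels are given in TPM, the share of transcripts after division by length, for replicates 1 and 2 in turn. Differences are log2 fold changes on TMM-scaled counts, ± an approximate SE (n = 2 per group), and a gene was called higher or lower at an edgeR quasi-likelihood p below 0.05 after Benjamini-Hochberg adjustment over 25045 genes. The 2 scales differ. Over genes of at least 10 TPM, the log2 fold change exceeded the log2 ratio of mean TPM by a median of 1.17 in MII against GV, 1.48 in MII against EpiC, 0.32 in GV against ESC and 0.01 in EpiC against ESC. Equal TPM in MII and GV therefore appears as a positive fold change, and directions are relative to the bulk of mRNAs. The words rose and fell are used below in this relative sense only. Gain or loss of an mRNA per cell was not tested, and any poly(A) selection is not stated. In libraries of many cells, fewer cells of a kind and less of an mRNA per cell cannot be told apart.

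In MII oocytes a few abundant mRNAs held most of the factors' TPM. The 10 most abundant held 91.2% and 89.7% of the factors' summed TPM in MII, against 57.2% and 58.5% in GV. The corresponding shares were 56.3% and 60.01% in EpiC and 59.9% and 60.1% in ESC. In MII the 10 were Eif4a1, Eif1, Eif5a, Eif2b1, Eif4g2, Eif4e3, Eif4a2, Eif3i, Eif4e and Eif5. The median factor stood at 11.7 and 10.2 TPM in MII and at 87.6 and 90.8 TPM in GV, and 20 and 17 factors were below 5 TPM in MII libraries against 4 in each GV library. The summed level changed less, with 6505 and 6119 TPM in MII and 7417 and 6981 TPM in GV, so fewer genes made up a similar total. These shares, medians and counts were not computed over all genes. Whether the pattern is particular to the factors was therefore not tested.

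**Figure D1:**
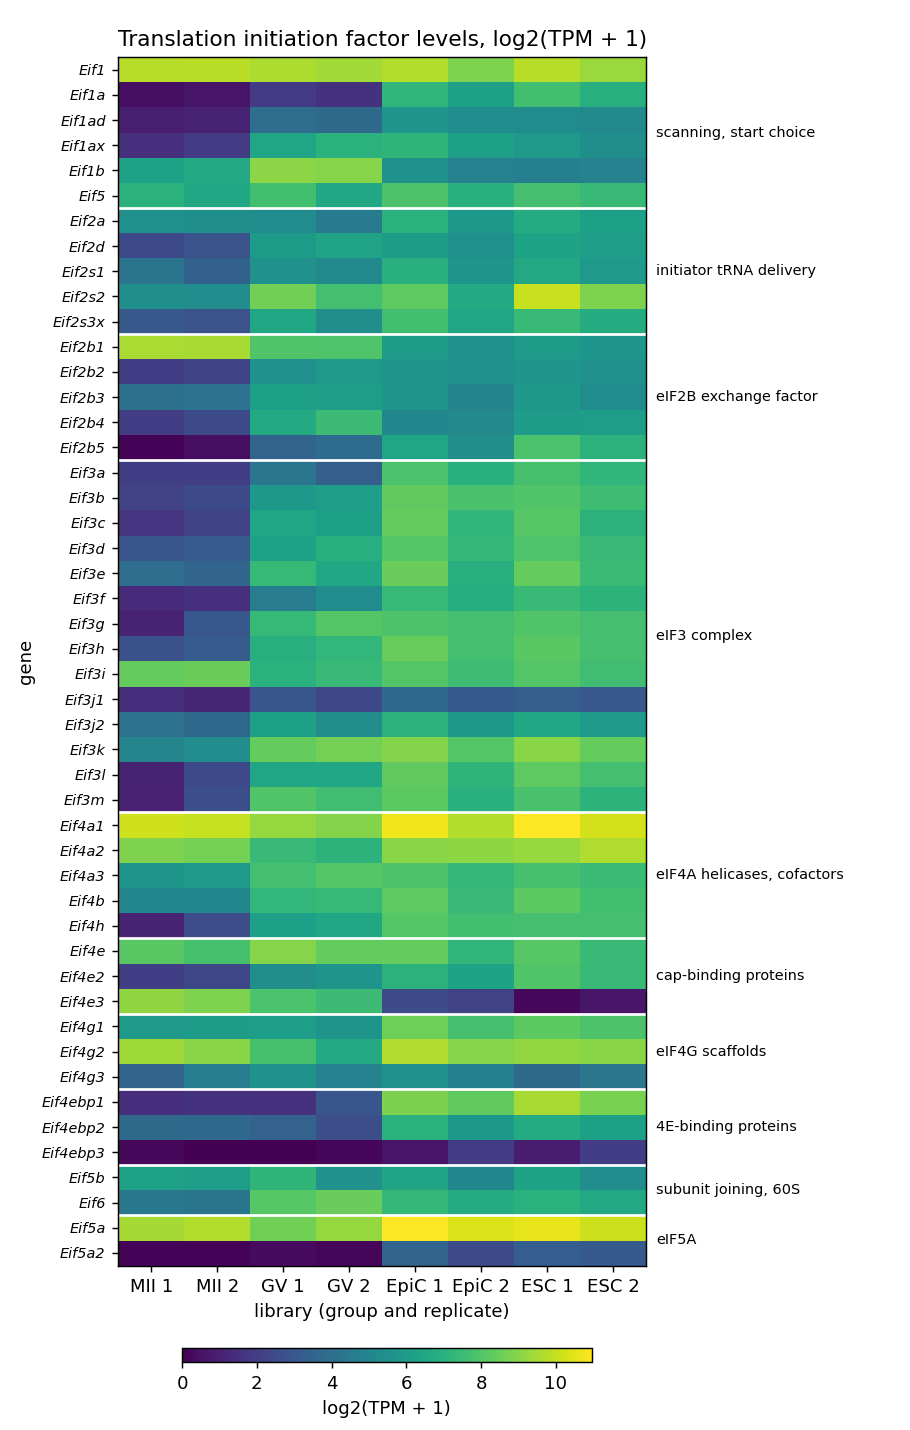
Level of each of the 48 factors as log2(TPM + 1), genes in rows by role and the 8 libraries in columns. The 2 MII columns are dark for most eIF3 and eIF2B rows and bright for Eif3i and Eif2b1, and the Eif4e3 row is bright only in the oocyte columns.

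Between MII and GV, 11 of 48 factors were called higher and 23 lower, and 14 did not pass. Among all genes tested, 17.4% were called higher and 22.2% lower. Lower calls were thus more frequent among the factors (47.9%) than among all genes, and the median log2 fold change was −1.02 for the factors and −0.53 for all genes. Higher calls, at 22.9%, were nearer to the background. With limma on log2(TPM + 1), 5 of the 11 higher calls were kept, and those of Eif1, Eif2a, Eif4a1, Eif4ebp2, Eif4g1 and Eif5a were lost.

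Most mRNAs of eIF3, the complex that holds the small subunit and the mRNA together, fell in MII, while 1 rose. Of 14 eIF3 genes, 10 were called lower, 1 higher and 3 (Eif3a, Eif3j1 and Eif3j2) did not pass. Eif3m, a subunit of the octameric core, had 0.979 and 5.19 TPM in MII, against 254 and 189.8 TPM in GV. Eif3g, which contacts mRNA near the entry channel, had 1.10 and 6.90 TPM in MII, against 162 and 256 TPM in GV. Eif3l, another core subunit, had 1.09 and 4.37 TPM in MII, against 88.7 and 91.4 TPM in GV. The replicates differed by a larger ratio in MII than in GV for these 3 genes. Both MII values lay far below both GV values, a description only, since the genes were named for their calls.

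Their log2 fold changes were −4.96 ± 0.82 for Eif3m (adjusted p = 0.00138), −4.50 ± 0.78 for Eif3g (adjusted p = 0.00179) and −3.84 ± 0.66 for Eif3l (adjusted p = 0.00165). The other 7 called subunits, Eif3b, Eif3c, Eif3d, Eif3e, Eif3f, Eif3h and Eif3k, changed by −3.60 to −2.18, and of them Eif3k was the most abundant in MII, at 30.6 and 40.8 TPM against 328 and 406 TPM in GV. Eif3a, the large scaffold subunit, had 3.08 and 3.13 TPM in MII and 18.9 and 8.91 TPM in GV (adjusted p = 0.0891). Eif3a was already the lowest of the 12 subunits other than Eif3j in both GV libraries.

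Eif3i, a propeller-shaped subunit that sits with Eif3b and Eif3g at the edge of the complex, went the other way. It had 325 and 355 TPM in MII, against 126 and 168 TPM in GV, with a log2 fold change of 2.35 ± 0.35 (adjusted p = 0.00092). The gene lies on chromosome 4 from 129591960 to 129600648 on the minus strand (GRCm38). Both MII libraries also lay above the cultured cells, where EpiC had 262 and 186 TPM and ESC had 261 and 191 TPM.

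The balance among subunits changed with it. Over the 12 subunits other than the loosely bound Eif3j, the most abundant mRNA exceeded the least abundant 332-fold and 202-fold in MII, against 17.4-fold and 45.5-fold in GV. In cultured cells the span was 3.01-fold and 2.35-fold in EpiC and 3.11-fold and 2.49-fold in ESC. The median of the 12 was 3.28 and 6.05 TPM in MII, 105 and 104 TPM in GV, 300.1 and 153 TPM in EpiC and 255 and 182 TPM in ESC. Eif3j1 and Eif3j2 are close copies, and the division of reads between them is uncertain.

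**Figure D2:**
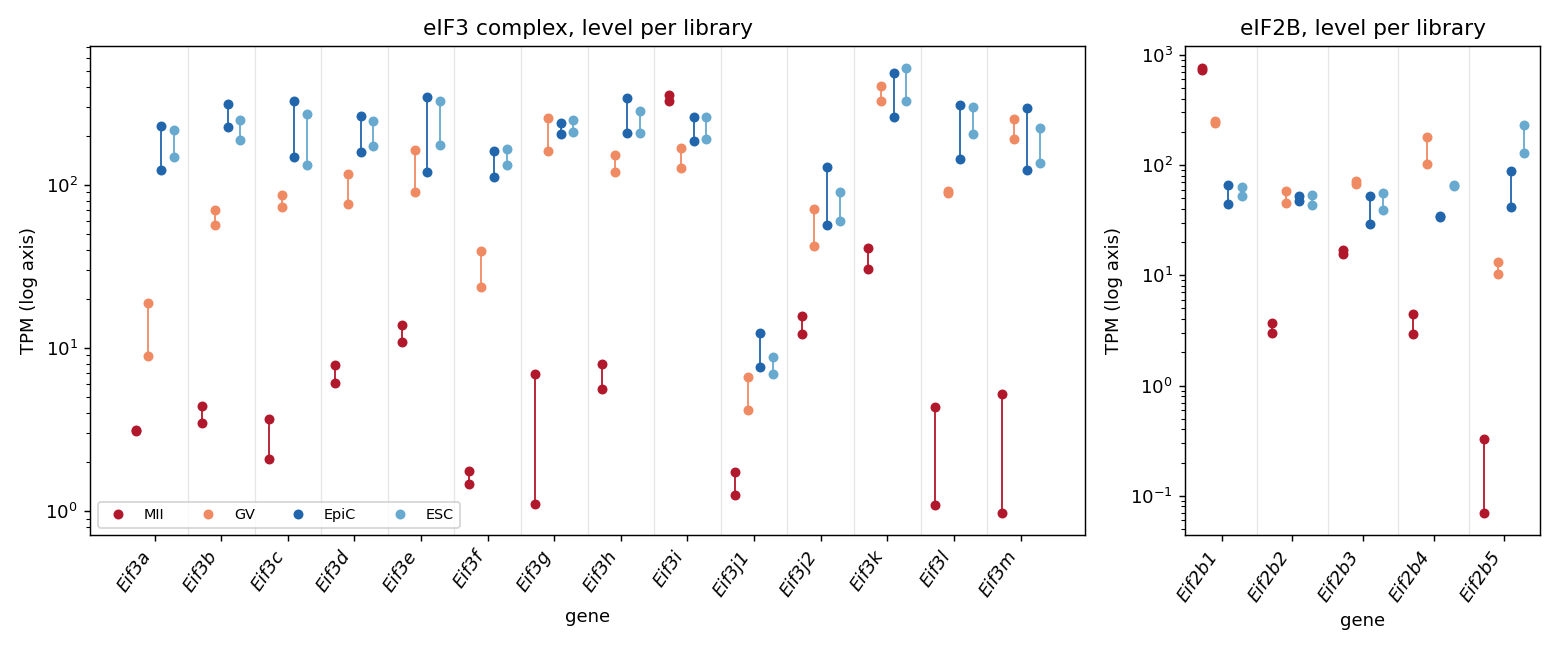
TPM on a log axis of the 14 eIF3 genes (left) and the 5 eIF2B genes (right), with 1 point per library and a line joining the 2 libraries of a group. In MII only Eif3i and Eif2b1 lie above their GV points, and the other subunits lie below.

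Set against ESC, GV oocytes had 3 eIF3 genes called lower (Eif3a, Eif3b and Eif3f), none higher, and 11 that did not pass. Background in this comparison was 28.3% higher and 31.3% lower. Eif3a, at 13.9 ± 7.06 TPM in GV and 183 ± 49.2 TPM in ESC, had the largest change, −3.41 ± 0.45 (adjusted p = 0.00025). Eif3f, which belongs to the same module as Eif3h and Eif3m, changed by −1.88 ± 0.38 (adjusted p = 0.00253). Eif3b, the other central scaffold, changed by −1.55 ± 0.37 (adjusted p = 0.00613, and 0.0784 without GV replicate 1). MII against EpiC separated more, with 13 of 14 called lower and Eif3i higher (2.07 ± 0.35, adjusted p = 0.000688, but 0.0883 with limma on log2(TPM + 1)), where 28.5% of all genes were called higher and 39.6% lower. The 3 largest decreases there were those of Eif3f (−4.88 ± 0.43, adjusted p = 2.12e-05), Eif3l (−4.82 ± 0.69, adjusted p = 0.000266) and Eif3b (−4.72 ± 0.42, adjusted p = 2.22e-05). In that comparison Eif3j1 and Eif3j2 lost their calls in edgeR with relative log expression scaling (adjusted p = 0.074 and 0.0731). They also lost them with DESeq2 (adjusted p = 0.0639 and 0.067).

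In eIF2B, too, 1 mRNA was called higher in MII than in GV and 3 lower. This is the 5-subunit factor that recharges eIF2 with GTP and is inhibited by phosphorylated eIF2. Eif2b1, the alpha subunit of its regulatory part, had 757 and 724 TPM in MII, against 252 and 243 TPM in GV, a log2 fold change of 2.71 ± 0.34 (adjusted p = 0.000584). Eif2b4, the regulatory delta subunit, had 2.92 and 4.48 TPM in MII, against 103 and 179.7 TPM in GV (−4.76 ± 0.66, adjusted p = 0.000732). Eif2b5, the catalytic epsilon subunit, had 0.0701 and 0.325 TPM in MII, against 10.2 and 13.3 TPM in GV (−4.34 ± 0.71, adjusted p = 0.00138). Eif2b2, the regulatory beta subunit, had 2.996 and 3.73 TPM in MII, against 44.9 and 58.4 TPM in GV (−2.74 ± 0.37, adjusted p = 0.000681). No MII library overlapped a GV library for any of these 4 genes. They were named because they were called, so this is a description and no further support.

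Eif2b3, the catalytic gamma subunit, had 15.5 and 16.9 TPM in MII and 71.1 and 67.2 TPM in GV (adjusted p = 0.0838). The 5 mRNAs, which encode subunits of 1 decameric complex, lay within 2.67-fold and 1.63-fold of each other in EpiC and within 4.29-fold and 3.28-fold in ESC. In GV the span was 24.6-fold and 18.3-fold. In MII it was 10812-fold and 2226-fold, with Eif2b5 at the low end on few counts, so that the size of this span is imprecise. Eif2b1 (chromosome 5 from 124570213 to 124579131, minus strand, GRCm38) was already 2.51 ± 0.34 higher in GV than in ESC (adjusted p = 0.000268) and Eif2b5 3.73 lower on the log2 scale (−3.73 ± 0.68, adjusted p = 0.00147). Eif2b4 was called higher in GV than in ESC (1.59 ± 0.58, adjusted p = 0.0386), a call lost without GV replicate 2 (adjusted p = 0.194), ESC replicate 1 (0.094) or ESC replicate 2 (0.145).

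Among the factors of initiator tRNA delivery, 3 fell in MII, 1 rose and 1 did not pass. Eif2d, which can place tRNA on the small subunit without eIF2 and takes part in recycling, had 4.43 and 6.04 TPM in MII, against 61.3 and 84.2 TPM in GV (−2.67 ± 0.37, adjusted p = 0.000732). Eif2s3x, the X-linked gamma subunit of eIF2 that binds GTP and the tRNA, had 7.45 and 6.06 TPM in MII, against 90.2 and 42.0 TPM in GV (−2.20 ± 0.45, adjusted p = 0.00414). Eif2s2, the beta subunit, had 42.8 and 40.5 TPM in MII, against 389 and 206 TPM in GV (−1.66 ± 0.53, adjusted p = 0.0337). For all 3, named because they were called, the MII libraries lay below both GV libraries, which is a description only. The Eif2s2 call was lost in edgeR with relative log expression scaling (adjusted p = 0.0842) and with DESeq2 (0.0513).

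The Eif2s2 call was lost without GV replicate 1 (adjusted p = 0.128), MII replicate 1 (0.121) or MII replicate 2 (0.123). Eif2a, an alternative carrier of initiator tRNA, had 44.8 and 42.9 TPM in MII, against 38.7 and 20.99 TPM in GV (1.79 ± 0.43, adjusted p = 0.00876, and 0.063 without GV replicate 2). Eif2s1, the alpha subunit phosphorylated under stress, had 17.5 and 9.52 TPM in MII and 46.0 and 35.8 TPM in GV (adjusted p = 0.457). In GV against ESC only Eif2a was called, as lower (−1.27 ± 0.42, adjusted p = 0.0268), and that call was lost without any of 5 libraries, with adjusted p-values of 0.0506 to 0.147.

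Among the scanning factors are pairs of close copies, whose shares are given as descriptions with no test. Eif1 and Eif1b encode near-identical forms of eIF1, which guards start codon choice. Eif1b had 76.6 and 98.1 TPM in MII, against 527 and 506 TPM in GV, and 47.8 and 27.0 TPM in EpiC, against 25.3 and 28.4 TPM in ESC. Its share of the summed TPM of the pair was 7.97% and 9.92% in MII, 40.2% and 42.2% in GV, 5.51% and 5.58% in EpiC and 2.83% and 4.32% in ESC. Over protein-coding transcripts alone the share was 12.7% and 14.5% in MII, 67.5% and 66.8% in GV, 9.78% and 7.40% in EpiC and 5.81% and 7.77% in ESC. On both scales it was highest in the GV libraries.

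In MII against GV, Eif1b changed by −1.40 ± 0.34 (adjusted p = 0.0102, and 0.0644 without MII replicate 1). Eif1, at 885 and 891 TPM in MII and 784 and 692 TPM in GV, was called higher (1.96 ± 0.33, adjusted p = 0.00153). Its TPM over all transcripts differed little, and the call was lost with limma on log2(TPM + 1) (adjusted p = 0.644). Over protein-coding transcripts alone Eif1 had 525 and 579 TPM in MII, against 253 and 252 TPM in GV. There limma on log2(TPM + 1) kept the call. In GV against ESC, Eif1b changed by 4.58 ± 0.39 (adjusted p = 2.54e-05), while Eif1, at 738 ± 65.3 TPM in GV and 749 ± 169.6 TPM in ESC, did not pass (adjusted p = 0.939). Protein-coding transcripts made up 59.3% and 65.0% of Eif1 TPM in MII and 32.3% and 36.4% in GV, so the gene level includes transcripts annotated as non-coding.

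Eif1ax and Eif1a encode forms of eIF1A, the partner of eIF1 on the scanning subunit. Eif1ax, the X-linked copy, had 1.89 and 2.70 TPM in MII, against 84.6 and 125 TPM in GV (−3.97 ± 0.57, adjusted p = 0.000782). Eif1a had 0.364 and 0.530 TPM in MII and 2.70 and 2.04 TPM in GV (adjusted p = 0.0717). In ESC, by contrast, Eif1a was the more abundant copy, at 199 and 119.7 TPM beside 58.6 and 43.3 TPM of Eif1ax. The share of Eif1ax in the pair was 83.8% and 83.6% in MII, 96.9% and 98.4% in GV, 49.2% and 49.9% in EpiC and 22.8% and 26.6% in ESC. Over protein-coding transcripts alone it was 83.8% and 83.4% in MII, 96.9% and 97.3% in GV, 29.96% and 19.4% in EpiC and 12.9% and 10.07% in ESC. The rest of the Eif1ax TPM of cultured cells was on a retained-intron transcript. This transcript also had 52.4 TPM in GV replicate 2, against 0 in GV replicate 1. Over the protein-coding transcript alone Eif1ax had 84.6 and 72.8 TPM in GV.

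In GV against ESC, Eif1a fell by 5.77 on the log2 scale (−5.77 ± 0.49, adjusted p = 2.47e-05) and Eif1ax rose by 2.13 ± 0.52 (adjusted p = 0.00695, but 0.0539 without ESC replicate 2 and 0.0729 with limma on log2(TPM + 1)). Eif1ad, whose product shares a domain with eIF1A, had 0.867 and 1.15 TPM in MII, against 14.3 and 12.8 TPM in GV (−2.57 ± 0.35, adjusted p = 0.0007). Eif5, the GTPase activator of eIF2, overlapped between the groups, with 132 and 90.3 TPM in MII and 196 and 94.8 TPM in GV (adjusted p = 0.0925). Reads of such copies are divided by the authors' quantification, and small shares of a pair are uncertain for that reason.

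The helicase genes and their cofactors diverged in MII. Eif4a1, the main helicase that unwinds leaders, had 1149.6 and 1008 TPM in MII, against 588 and 488 TPM in GV (2.17 ± 0.40, adjusted p = 0.00244). Eif4a2, its close paralog, had 454 and 402 TPM in MII, against 168 and 135 TPM in GV (2.67 ± 0.36, adjusted p = 0.000665). Their RNA-binding cofactors fell. Eif4h had 1.12 and 4.99 TPM in MII, against 72.2 and 91.2 TPM in GV (−3.59 ± 0.68, adjusted p = 0.00275).

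Eif4b had 32.6 and 33.3 TPM in MII, against 150.2 and 162 TPM in GV (−1.09 ± 0.35, adjusted p = 0.0352). That last call was lost without GV replicate 2, either MII library or either ESC library, with adjusted p-values of 0.0503 to 0.129, although the TPM of the groups lay far apart. With relative log expression scaling in edgeR the Eif4b call was lost too (adjusted p = 0.135), as it was with DESeq2 (0.102). Eif4a3, a member of the exon junction complex rather than of the cap complex, had 52.9 and 59.3 TPM in MII and 205 and 266 TPM in GV (adjusted p = 0.0622). The Eif4a1 increase did not pass with limma on log2(TPM + 1) (adjusted p = 0.105), and some of its reads may fall on processed copies elsewhere in the genome, a point that was not tested.

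Of the scaffolds, Eif4g2 rose most. This scaffold, also called DAP5, lacks the eIF4E-binding site of its relatives and serves initiation that does not depend on eIF4E. It had 667 and 520.0 TPM in MII, against 219.5 and 103 TPM in GV, a log2 fold change of 3.04 ± 0.47 (adjusted p = 0.00102). Eif4g2 lies on chromosome 7 from 111067750 to 111083030 on the minus strand (GRCm38). Eif4g1, the main scaffold of cap-dependent initiation, had 57.3 and 63.7 TPM in MII and 69.8 and 50.6 TPM in GV. Its TPM overlapped, and its call (1.19 ± 0.36, adjusted p = 0.0268) was lost without any 1 of the 4 oocyte libraries, with adjusted p-values of 0.064 to 0.162.

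In GV against ESC the order of scaffolds differed. Eif4g1 was lower in GV, at 60.2 ± 13.6 TPM, against 264 ± 41.1 TPM in ESC (−1.65 ± 0.37, adjusted p = 0.00421). Eif4g2, at 161 ± 82.4 TPM in GV and 549 ± 46.5 TPM in ESC, was called lower (−1.29 ± 0.44, adjusted p = 0.0301), a call lost without any of 5 libraries, with adjusted p-values of 0.0548 to 0.149. Eif4g3 was called higher, at 38.4 ± 14.3 TPM in GV and 15.9 ± 4.67 TPM in ESC (1.70 ± 0.51, adjusted p = 0.0181, but 0.0534 without GV replicate 1 and 0.0906 without ESC replicate 1). MII and EpiC overlapped in Eif4g2 TPM, with 667 and 520.0 TPM in MII and 800.0 and 494 TPM in EpiC.

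Cap-binding proteins showed the widest contrast between oocytes and cultured cells. Eif4e3, an atypical cap binder, had 568 and 459.9 TPM in MII, against 231 and 180.2 TPM in GV, a log2 fold change of 2.48 ± 0.50 (adjusted p = 0.00361). It had 4.91 and 3.42 TPM in EpiC, against 0.192 and 0.585 TPM in ESC. Eif4e2, which binds the cap without recruiting eIF4G and is known as a repressor, ran in the opposite order. It had 3.03 and 4.14 TPM in MII, against 41.2 and 50.1 TPM in GV (−2.28 ± 0.37, adjusted p = 0.00138), and 130.4 and 80.6 TPM in EpiC, against 254 and 170.4 TPM in ESC.

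Eif4e, the general cap-binding protein, had 279.7 and 217 TPM in MII and 505 and 325 TPM in GV (adjusted p = 0.229), and 326 and 147 TPM in EpiC and 271 and 166 TPM in ESC. GV was called higher than ESC (1.25 ± 0.49, adjusted p = 0.0495), a call lost without GV replicate 1 (adjusted p = 0.126) or ESC replicate 2 (0.254). With relative log expression scaling in edgeR the Eif4e call was lost too (adjusted p = 0.0903), as it was with DESeq2 (0.0785). Eif4e3 made up 66.8% and 67.6% of the summed TPM of the 3 cap-binding genes in MII, 29.7% and 32.5% in GV, 1.06% and 1.48% in EpiC and 0.0365% and 0.174% in ESC. In ESC, Eif4e2 made up 48.4% and 50.5%, and in MII 0.356% and 0.608%. Eif4e3 (chromosome 6 from 99625135 to 99666771, minus strand, GRCm38) thus had the largest increase of any factor in both oocyte against cultured cell comparisons, 9.28 ± 0.68 in GV against ESC (adjusted p = 1.36e-05) and 8.41 ± 0.65 in MII against EpiC (adjusted p = 1.16e-05).

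The 3 genes of eIF4E-binding proteins, small repressors that occupy the eIF4G site of eIF4E until mTORC1 phosphorylates them, were low in oocytes. Eif4ebp1 had 1.69 and 2.03 TPM in MII and 1.97 and 6.57 TPM in GV, which overlapped. It had 441 and 313 TPM in EpiC and 725 and 431 TPM in ESC. GV against ESC gave −6.82 ± 0.63 (adjusted p = 3.94e-05) and MII against EpiC −6.10 ± 0.62 (adjusted p = 3.91e-05). Between 7.62% and 24.3% of the gene's TPM was on its protein-coding transcript, over all libraries.

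Eif4ebp2 had 12.9 and 12.2 TPM in MII, against 9.74 and 5.16 TPM in GV, and 128 and 55.8 TPM in EpiC, against 107 and 73.0 TPM in ESC. It was called lower in GV than in ESC (−3.29 ± 0.46, adjusted p = 0.000345) and higher in MII than in GV (1.91 ± 0.44, adjusted p = 0.0071, and 0.0538 without GV replicate 2). Eif4ebp3 was at most 0.185 TPM in any oocyte library, and its lower call in GV against ESC (adjusted p = 0.0431) was lost without GV replicate 1 (0.197), GV replicate 2 (0.0738) or ESC replicate 2 (0.162). The summed TPM of the 3 genes over that of Eif4e was 0.0529 and 0.0659 in MII, 0.0232 and 0.0364 in GV, 1.75 and 2.53 in EpiC and 3.07 and 3.05 in ESC, so binding protein mRNA was scarce beside Eif4e mRNA in oocytes. Over protein-coding transcripts alone the ratio was 0.0497 and 0.0661 in MII, 0.0209 and 0.0193 in GV, 0.633 and 0.951 in EpiC and 0.861 and 1.07 in ESC, so it did not exceed 1 in 3 of the 4 cultured libraries.

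Eif4e1b, Eif4enif1 and Eif2s3y carry similar names and were examined beside the factors. Eif4e1b, an oocyte relative of eIF4E, had 406 and 376 TPM in MII, against 2008 and 2192 TPM in GV (−1.29 ± 0.38, adjusted p = 0.0229), and at most 1.45 TPM in EpiC and ESC. In GV its level exceeded the sum of Eif4e, Eif4e2 and Eif4e3. Eif4enif1, the 4E-T protein that binds eIF4E in repressed particles, had 188 and 181 TPM in MII and 395 and 255 TPM in GV (adjusted p = 0.459), and 62.8 and 51.6 TPM in EpiC and 49.5 and 44.7 TPM in ESC. Eif2s3y, the Y-linked copy of Eif2s3x, was at 0 in all 4 oocyte libraries and at 39.7 and 15.8 TPM in EpiC and 30.8 and 19.5 TPM in ESC.

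**Figure D3:**
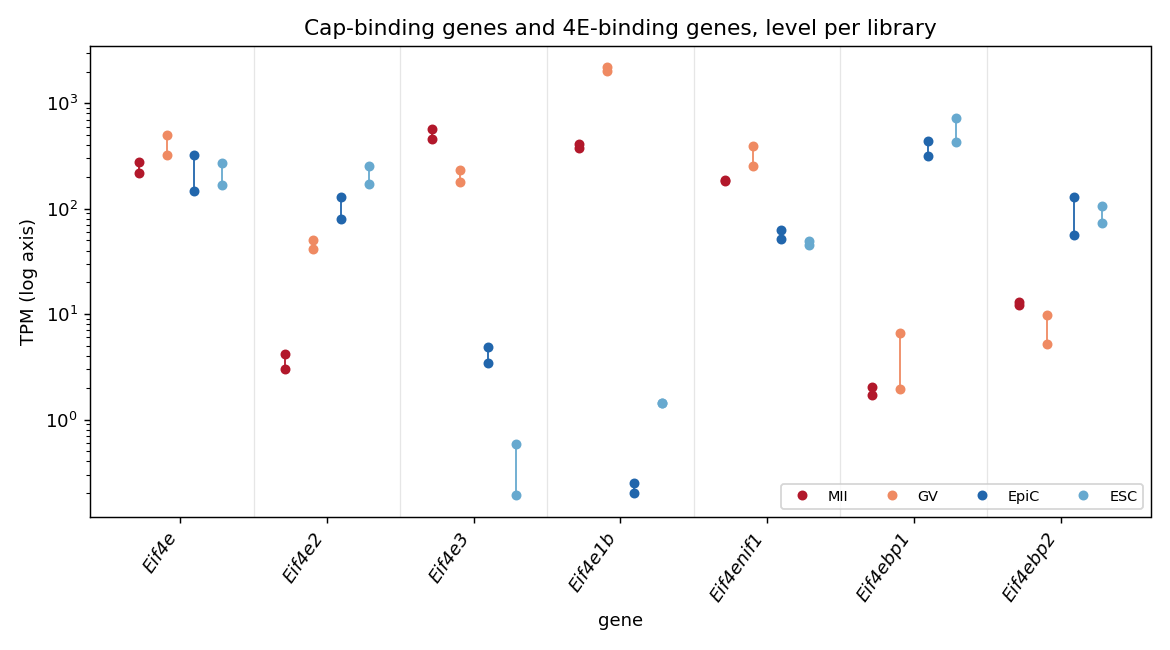
TPM on a log axis of cap-binding and eIF4E-binding genes, with 1 point per library and a line joining the 2 libraries of a group. Eif4e3 and Eif4e1b are high in MII and GV and low in EpiC and ESC, and Eif4ebp1 and Eif4ebp2 the reverse. The Eif4e points lie between 147 and 505 TPM, with both GV points above those of MII and ESC.

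Late-acting factors also parted. Eif6, which binds the large subunit and keeps it from joining, had 19.9 and 18.2 TPM in MII, against 279 and 351 TPM in GV (−2.96 ± 0.39, adjusted p = 0.000642), and 155 and 106 TPM in EpiC and 125 and 96.9 TPM in ESC. The GV against ESC change was 1.40 ± 0.37 (adjusted p = 0.00971), a call lost without GV replicate 2 (adjusted p = 0.0651), without ESC replicate 2 (0.0765) and with limma over protein-coding transcripts (0.105). Those transcripts made up 39.9% and 62.9% of Eif6 TPM in GV and 77.9% and 78.7% in ESC. Eif5b, the joining GTPase, had 75.7 and 67.6 TPM in MII and 144 and 45.6 TPM in GV, which overlapped (adjusted p = 0.212), and 8.36% to 18.0% of its TPM was on its protein-coding transcript, over all libraries.

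Eif5a, which is modified with hypusine and relieves stalled ribosomes, had 714 and 819 TPM in MII, against 389 and 603 TPM in GV (1.83 ± 0.37, adjusted p = 0.00381, but 0.168 with limma on log2(TPM + 1)). Eif5a2, its rarer paralog, was at most 0.237 TPM in any oocyte library and had 10.5 and 4.79 TPM in EpiC and 8.79 and 7.71 TPM in ESC. Its change was −5.23 ± 0.55 in GV against ESC (adjusted p = 7.9e-05) and −4.94 ± 0.55 in MII against EpiC (adjusted p = 6.77e-05).

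Over all 48 factors, GV against ESC gave 8 called higher and 17 lower with 23 not passing, both shares being below or close to the background of that comparison at 16.7% and 35.4%. MII against EpiC gave 10 called higher and 29 lower with 9 not passing, 20.8% and 60.4%, where 28.5% of all genes were called higher and 39.6% lower, so that the higher share was below the background. The median log2 fold change was −0.63 for the factors and −0.51 for all genes in GV against ESC, and −1.84 for the factors and −1.23 for all genes in MII against EpiC. Eif4a1, Eif4a2 and Eif5a were among the genes called lower in GV than in ESC, by −1.18 ± 0.39, −1.74 ± 0.35 and −1.17 ± 0.36 (adjusted p = 0.0266, 0.0024 and 0.0207). Only the Eif4a2 call held without each library in turn. Eif4a2 transcripts annotated as protein-coding were lower too, at 138 and 110 TPM in GV and 201 and 213 TPM in ESC. The full-length forms Eif4a2-001 and Eif4a2-014 went the other way, with 108 and 75.2 TPM in GV, against 21.9 and 31.8 TPM in ESC. Of the 10 higher in MII than in EpiC, Eif1, Eif3i, Eif4a1, Eif4a2, Eif4g2, Eif4e and Eif5b lost the call with limma on log2(TPM + 1), where Eif4a1, Eif4a2 and Eif4g2 had values of −0.13, −0.29 and −0.09.

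Between EpiC and ESC, Eif4e3 alone was called, at 4.17 ± 1.06 TPM in EpiC and 0.389 ± 0.278 TPM in ESC (3.35 ± 0.53, adjusted p = 0.00804, but 0.0651 in a fit of the EpiC and ESC libraries alone), against 2.63% of all genes called higher and 2.83% lower. No factor was called lower, while 2 were higher and 3 lower at an unadjusted edgeR p below 0.05, and DESeq2 called 1 higher and 1 lower. Eif2s2 had 299.8 and 102 TPM in EpiC and 1049.8 and 463 TPM in ESC (adjusted p = 0.0781). The 14 eIF3 genes changed by −0.19 to 0.37 on the log2 scale.

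The change from GV to MII was compared with the change from ESC to EpiC in the same model, as the first minus the second. It differed for 27 of 48 factors, 7 with a positive difference and 20 with a negative one, where 13.2% of all genes were called positive and 16.4% negative. The negative differences were largest for Eif3m (−5.17 ± 1.04, adjusted p = 0.00619), Eif1ax (−4.86 ± 0.75, adjusted p = 0.00257) and Eif3g (−4.48 ± 1.002, adjusted p = 0.00979). The positive ones were largest for Eif4a2 (3.06 ± 0.49, adjusted p = 0.00276), Eif4g2 (2.83 ± 0.62, adjusted p = 0.00911) and Eif2b1 (2.74 ± 0.46, adjusted p = 0.00319). Eif4e3 rose in both, by 2.48 and 3.35 on the log2 scale, and the difference between the changes did not pass (adjusted p = 0.382).

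**Figure D4:**
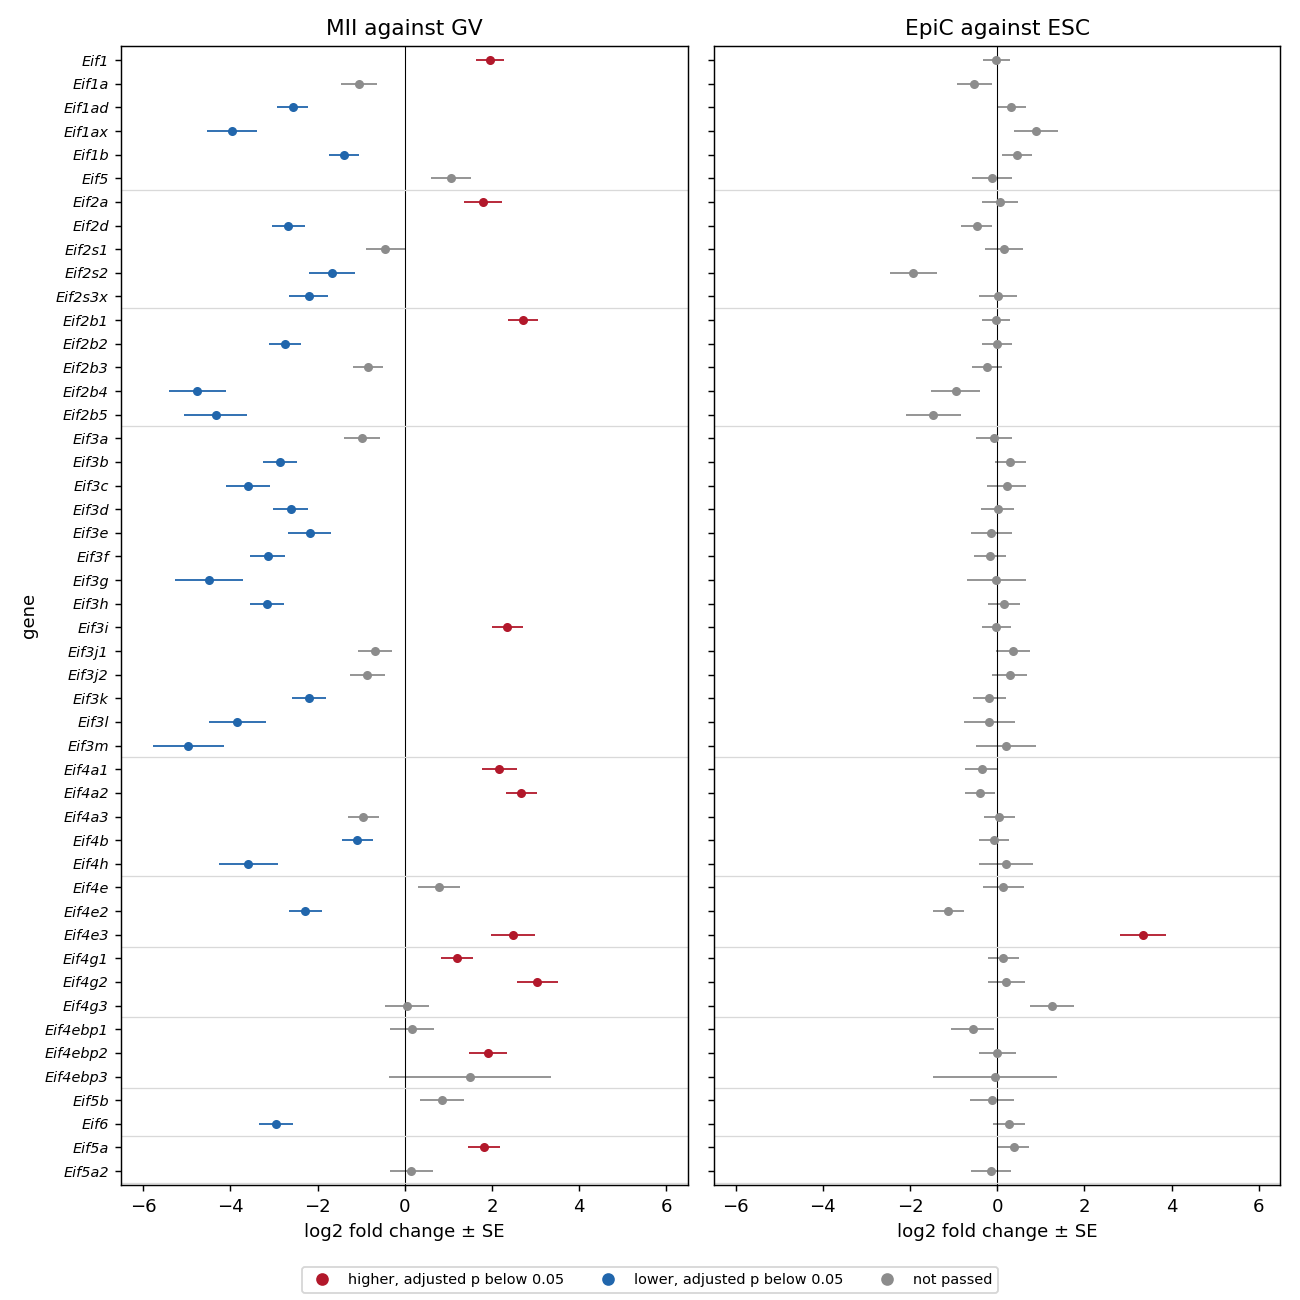
Log2 fold change ± SE of the 48 factors in MII against GV (left) and EpiC against ESC (right), genes in rows by role, red and blue for genes called higher and lower and grey for those that did not pass. On the left 34 points are coloured, and on the right only that of Eif4e3.

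Eif4a2 differed between oocytes and cultured cells in which of its transcripts was present, beyond its level. The gene lies on chromosome 16 from 23107444 to 23114136 on the plus strand (GRCm38), and 24 transcripts are listed. Eif4a2-014 encodes the full-length helicase, though the version quantified (1875 bases) is longer than that of GENCODE M21 (1227 bases). It made up 61.7% and 58.4% of the gene's TPM in MII and 63.6% and 55.3% in GV, against 1.43% and 2.62% in EpiC and 3.56% and 3.82% in ESC. Eif4a2-202 made up 16.2% and 25.4% in MII and 16.8% and 24.9% in GV, and had 0 estimated counts in each EpiC and ESC library. Eif4a2-002 made up 27.6% and 21.3% in EpiC and 29.0% and 22.4% in ESC, against at most 1.17% in any oocyte library.

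Eif4a2-002, Eif4a2-003 and Eif4a2-202 share a reading frame that ends early, in an exon that the full-length form skips. In Eif4a2-001 and in other full-length forms the stop codon is in the final exon, at 23113309 to 23113311. In the early-stop forms it is at 23112358 to 23112360, inside an exon that begins at 23112351, and Eif4a2-002 reads on from that exon through the last intron. The 2 junctions after exon 10 (GRCm38, plus strand, chr16:23111867-23111896 joined to chr16:23113167-23113196 or to chr16:23112351-23112380, GENCODE M21 transcripts) are shown because the 2 families part at this point. Capitals mark the first 3 bases of the final exon in the full-length form and the stop codon in the early-stop form.
Eif4a2-001 exon 10 to final exon: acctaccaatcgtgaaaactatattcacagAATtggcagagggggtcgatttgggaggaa
Eif4a2-202 exon 10 to early-stop exon: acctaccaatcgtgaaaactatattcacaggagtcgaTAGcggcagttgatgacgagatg

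Over the 3 transcripts spliced to the start of the early-stop exon, the share was 22.2% and 28.3% in MII, 23.5% and 29.95% in GV, 40.3% and 33.9% in EpiC and 38.5% and 30.2% in ESC. The sum of these 3 was therefore less different between oocytes and cultured cells than its parts. Eif4a2-016, a retained-intron transcript that ends inside this exon at 23112409, was not counted. It made up 8.33% and 7.43% of the gene's TPM in EpiC and 7.09% and 7.41% in ESC, against at most 0.409% in any oocyte library. Eif4a2-202 and Eif4a2-003 hold the same early-stop exon, and the 0 of Eif4a2-202 in cultured cells rests on the division of reads between such forms. Eif4a2-202 averaged 30.8 TPM in GV and 87.9 TPM in MII. Set against a floor of 3 counts per library, these were 617-fold the floor of ESC and 1570-fold that of EpiC. The floor allows for counting error and not for the division of reads, so neither value is a lower bound.

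A further part of the Eif4a2 signal in cultured cells was on 15 transcripts annotated as retained introns. Together they made up 1.77% and 0.865% of the gene's TPM in MII and 2.23% and 4.47% in GV, against 48.8% and 47.2% in EpiC and 48.0% and 49.9% in ESC. The largest of them in ESC was Eif4a2-020, at 50.8 and 68.2 TPM in ESC, beside 23.7 and 37.2 TPM in EpiC and at most 0.180 TPM in any oocyte library. Transcripts annotated as protein-coding, which include Eif4a2-002 and Eif4a2-202 but not Eif4a2-003, made up 79.5% and 84.8% in MII, 82.1% and 82.0% in GV, 29.1% and 24.2% in EpiC and 32.8% and 26.5% in ESC. Eif4a2-006, which lacks a 140-base exon and is annotated as a target of nonsense-mediated decay, was more even, at 12.1% and 11.6% in MII, 8.78% and 9.42% in GV, 6.63% and 13.8% in EpiC and 7.50% and 13.8% in ESC.

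Usage of Eif4a2 transcripts differed in GV against ESC (Simes adjusted p = 2.09e-07 over 11953 genes, edgeR diffSpliceDGE) and in MII against EpiC (adjusted p = 4.03e-07). It did not pass in MII against GV (adjusted p = 0.304) or EpiC against ESC (adjusted p = 1). Over the full-length forms Eif4a2-001 and Eif4a2-014 alone, levels were 287 and 238 TPM in MII, 108 and 75.2 TPM in GV, 7.27 and 14.6 TPM in EpiC and 21.9 and 31.8 TPM in ESC. Small nucleolar RNA genes lie in introns of Eif4a2, and Rfc4 overlaps it on the other strand, and their part in the intron signal was not tested.

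**Figure D5:**
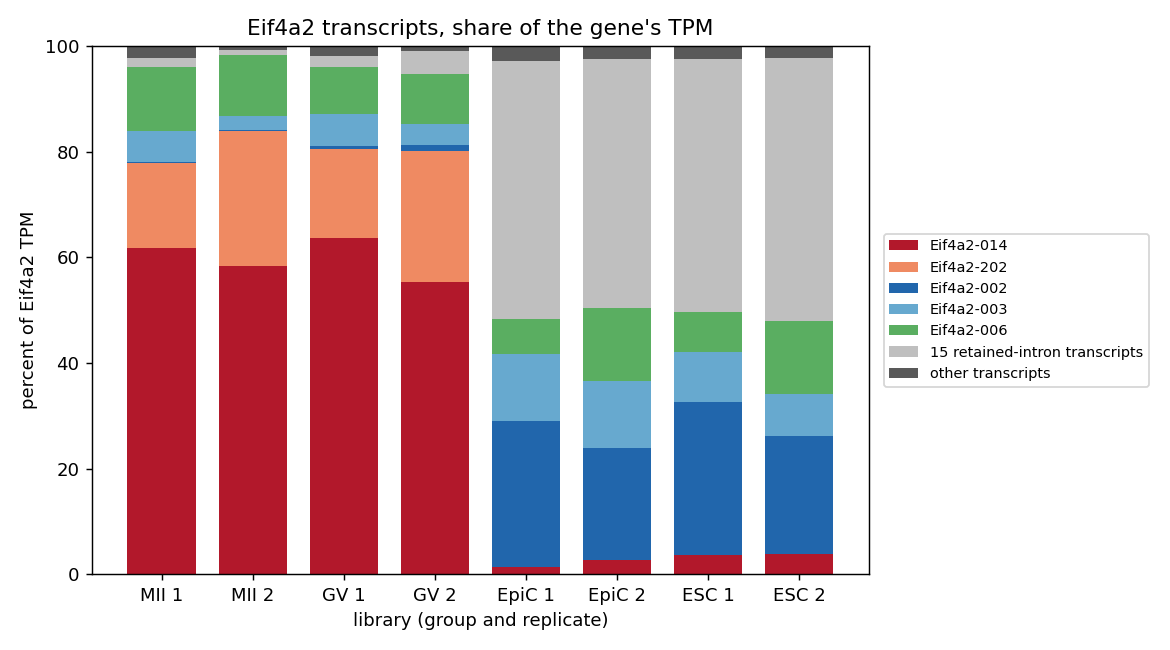
Stacked shares of the TPM of Eif4a2 by transcript, 1 bar per library. Eif4a2-014 and Eif4a2-202 fill most of the 4 oocyte bars, and Eif4a2-002 and retained-intron transcripts fill most of the 4 EpiC and ESC bars.

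Of 34 factors with several measured transcripts, transcript usage was called different for 3 in MII against GV (Eif2b1, Eif4e2 and Eif4g2), where 5.99% of all genes were called. In GV against ESC 11 were called and in MII against EpiC 15, with backgrounds of 26.8% and 31.2%. No factor was called in EpiC against ESC, where 0.092% of all genes were. On simulated counts of MII against GV the usage test made 54 false calls beside 200 changed genes. Single usage calls are therefore less certain than the threshold states. Eif4g1 was among those that differed in GV against ESC (adjusted p = 0.00239). Its transcript Eif4g1-007 had 14.9 and 17.7 TPM in MII and 18.7 and 12.4 TPM in GV, against 0.281 and 1.55 TPM in EpiC and 0.580 and 2.10 TPM in ESC. Its share of the gene was higher in GV than in ESC (log2 change of usage 3.77, adjusted p = 0.000855) and in MII than in EpiC (4.22, adjusted p = 0.000151).

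Promoters were searched for a pyrimidine run near the start, a looser form of the run that marks mRNAs whose translation follows mTORC1. Any link between such a run and mRNA levels in MII was not tested. A C followed by at least 4 bases that are C or T was sought on the gene's strand in the 15 bases on each side of the RefSeq start (GRCm38.p6). It was present in 11 of the 37 factors with a promoter in the table, 29.7%, and in 40.3% of the 27025 genes of the table. The windows of the eIF3 genes that hold a run are shown with the longest run in capitals (the Eif3l window holds a shorter one before it), beside that of Eif3m, which has none and had the largest decrease of the complex in MII.
Eif3f chr7:108934400-108934429: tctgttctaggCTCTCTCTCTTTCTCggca
Eif3b chr5:140419290-140419319: ctagcggcgcgcggtgaCTTCTgggagtcg
Eif3l chr15:79075208-79075237: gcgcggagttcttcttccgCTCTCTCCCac
Eif3m chr2:105017013-105017042: ttttccggtcggcgtgtttctggatcggag
Eif3f, Eif3b and Eif3l lie on the plus strand and Eif3m on the minus strand. Eif3a, Eif3c, Eif3d, Eif3g, Eif3j1 and Eif3k also hold no run in this window. For Eif3e, Eif3h, Eif3i and Eif3j2 no promoter sequence was at hand, so they were not searched.

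Genes that act on the initiation factors, or before and after them, were described by lists. In MII against GV, 4 of 7 eIF2 kinases and phosphatase genes were called higher and 1 lower, where 17.4% of all genes were called higher and 22.2% lower. The same background holds for the MII against GV counts of the lists that follow. Eif2ak4, the kinase that senses uncharged tRNA, had 104 and 120.2 TPM in MII, against 24.6 and 14.5 TPM in GV (3.71 ± 0.41, adjusted p = 0.000522). Ppp1r15a, which directs phosphatase to eIF2, had 149 and 237 TPM in MII, against 38.1 and 79.8 TPM in GV (2.86 ± 0.58, adjusted p = 0.00371). Gcn1l1, a partner of Eif2ak4, was called lower (−2.09 ± 0.32, adjusted p = 0.000999).

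Of 8 targets of the integrated stress response, none was called higher and 5 lower in MII than in GV. Asns, asparagine synthetase, had 0.0849 and 0.181 TPM in MII, against 2.58 and 2.62 TPM in GV (−4.23 ± 0.67, adjusted p = 0.00116). Ddit3, a transcription factor of the response, had 1.22 and 2.90 TPM in MII, against 61.02 and 104 TPM in GV (−4.19 ± 0.95, adjusted p = 0.00698). For mTORC1 and control of eIF4E, 6 of 14 genes were called higher and 5 lower. Ddit4, an inhibitor of mTORC1, had 261 and 319 TPM in MII, against 73.0 and 97.4 TPM in GV (2.92 ± 0.85, adjusted p = 0.022). Mknk1, the kinase that phosphorylates eIF4E, had 216 and 330.0 TPM in MII, against 93.6 and 119.8 TPM in GV (2.68 ± 0.41, adjusted p = 0.000999), and Rps6kb2, an S6 kinase, fell (−3.65 ± 0.62, adjusted p = 0.00164).

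Poly(A)-binding proteins and partners were divided, with 2 of 8 tested called higher and 3 lower. Paip1, which bridges the poly(A)-binding protein to eIF4A and eIF3, had 2463 and 1925 TPM in MII, against 379 and 369 TPM in GV (3.90 ± 0.45, adjusted p = 0.000545). Paip2, an inhibitor of the poly(A)-binding protein, had 9.49 and 11.5 TPM in MII, against 637 and 438 TPM in GV (−4.53 ± 0.40, adjusted p = 0.000518). Activator and inhibitor thus moved in opposite directions. Pabpc1l, the poly(A)-binding protein of oocytes, had 4.47 and 14.1 TPM in MII, against 329 and 409 TPM in GV (−3.97 ± 0.78, adjusted p = 0.00335).

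Among other initiation helpers 2 of 14 were called higher and 8 lower. Ddx3x, a helicase of structured leaders, had 1139.9 and 573 TPM in MII, against 309 and 91.9 TPM in GV (3.32 ± 0.67, adjusted p = 0.00386). Dhps (−4.03 ± 0.47, adjusted p = 0.000545) and Dohh (−3.44 ± 0.72, adjusted p = 0.00439), which make the hypusine of eIF5A, fell. Of 9 elongation factor genes none was called higher and 5 lower, led by Eefsec (−4.39 ± 0.58, adjusted p = 0.000638) and Eef1d (−4.21 ± 0.65, adjusted p = 0.00103). Of 5 termination and recycling genes 2 were called higher and 1 lower. In EpiC against ESC these lists, left-out genes excepted, held 2 calls, Asns (−2.30 ± 0.54, adjusted p = 0.0414) and Eef2k (−1.70 ± 0.38, adjusted p = 0.0338), both lower, where 2.63% of all genes were called higher and 2.83% lower.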

How the data were processed

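The deposited tables hold estimated counts and TPM per transcript, made by the authors with kallisto 0.43 on mm10 per the submitters' processing notes. RNA was total RNA extracted with TRIzol, and libraries were stranded and paired end, per the labels' protocols. The strand setting, the annotation release and any poly(A) selection are not given in the sources used here.

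Here the estimated counts were summed per gene, rounded, filtered with filterByExpr and scaled by TMM in edgeR 4.0.16 (R 4.3.3). All 8 libraries entered 1 robust quasi-likelihood fit by group, leaving 4 residual degrees of freedom, and contrasts were taken with glmQLFTest, p-values being adjusted over 25045 genes (Benjamini-Hochberg). Each SE was obtained by dividing the size of the fold change by the root of F. Transcript usage was tested with diffSpliceDGE and Simes p-values. TPM were summed per gene with no test in the main results, and shares and ratios were also computed over protein-coding transcripts alone, a choice made after seeing the data; limma 3.58.1 on log2(TPM + 1) and on log2(TPM + 0.1), DESeq2 1.42.0 and other settings served as alternatives. On simulated counts of MII against GV (23823 genes), 34% of genes changed 4-fold and 91% of those changed 16-fold were recovered, with 3 false calls.

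The factors, the lists of genes and the tests were chosen with earlier results of these data known. All factors may be named. In each role list up to 3 called genes per direction with the largest fold change were described in full, and in other lists up to 2. Depth limits precision to counting error and the spread between 2 libraries; intervals for assigning reads among transcripts were not used here. Genes that overlap on opposite strands (Eif2b4 and Snx17, Eif2a and Serp1, Eif3m and Ccdc73, Eif1ad and Banf1, Eif4a2 and Rfc4) may share reads. Gene positions and junction sequences are from GENCODE M21 on GRCm38, and promoter sequences from RefSeq on GRCm38.p6.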

Additional observations from a re-analysis of the deposited data

Results flagged for a closer look

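For 27 factors the change in MII against GV differed from the change in EpiC against ESC by a test of the difference itself, given here as the first minus the second on the log2 scale (edgeR quasi-likelihood test, adjusted p below 0.05). Among scanning factors the difference was 1.97 for Eif1, −2.90 for Eif1ad, −4.86 for Eif1ax and −1.85 for Eif1b. For eIF2B it was 2.74 for Eif2b1, −2.73 for Eif2b2, −3.80 for Eif2b4 and −2.88 for Eif2b5. For initiator tRNA delivery it was −2.20 for Eif2d and −2.23 for Eif2s3x. For eIF3 it was −3.16 for Eif3b, −3.82 for Eif3c, −2.64 for Eif3d, −2.05 for Eif3e, −2.99 for Eif3f, −4.48 for Eif3g, −3.32 for Eif3h, 2.38 for Eif3i, −2.01 for Eif3k, −3.66 for Eif3l and −5.17 for Eif3m. For the remaining roles it was 2.53 for Eif4a1, 3.06 for Eif4a2, −3.79 for Eif4h, 2.83 for Eif4g2, 1.91 for Eif4ebp2 and −3.23 for Eif6.

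Not all of these held without 1 library. The difference lost its call without at least 1 library for Eif1, Eif1b, Eif2b5, Eif2s3x, Eif3e, Eif3k and Eif4ebp2, with adjusted p-values of 0.0506 to 0.166.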

How the results depend on the processing

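Of 126 calls of single factors over the 4 comparisons and the difference, 81 kept direction and significance under all 18 alternatives. With relative log expression scaling 8 of the 126 were lost, and with DESeq2 7. With limma on log2(TPM + 1), log2(TPM + 0.1) and log2(TPM + 1) over protein-coding transcripts, the last chosen after seeing the data, higher calls numbered 5, 4 and 7 in MII against GV, 5, 5 and 5 in GV against ESC, and 3, 3 and 4 in MII against EpiC, and positive differences 3 and 2 with the first 2. In MII against EpiC these settings turned Eif4g2 to −0.094, −0.094 and −0.080, Eif4a1 to −0.13, −0.13 and −0.16, and the first 2 turned Eif4a2 to −0.29 and −0.29, while the last turned Eif5b to −0.51 and Eif4e to −0.026. In EpiC against ESC, no factor was called higher when only those groups were fitted, and lower calls numbered 1 with DESeq2, 2 with no count filter, 1 with protein-coding transcripts only and 2 with limma over protein-coding transcripts. The usage calls of Eif4a2 stayed on the same side of the threshold in every alternative.

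Leaving out 1 library at a time gave 8 to 11 higher and 20 to 23 lower calls in MII against GV, 1 to 1 and 0 to 1 in EpiC against ESC (1 lower without EpiC replicate 1), 4 to 9 and 11 to 17 in GV against ESC, 7 to 11 and 24 to 29 in MII against EpiC, and 5 to 8 positive and 15 to 20 negative differences. GV against ESC had 4 higher calls without ESC replicate 2 and 11 lower calls without GV replicate 1.

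With the replicate number as a block, 1 factor was called lower in EpiC against ESC, 14 were called higher and 25 lower in MII against GV, and no call made without the block was lost. Deviations of same-numbered libraries correlated at 0.515 between MII and GV and 0.764 between EpiC and ESC. Replicate 2 was also deeper and had the larger Gm42418 share in each group, and only 2 numbers exist. Whether same-numbered libraries share a batch was not tested, and the numbers were not taken as pairs.

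With 2 libraries per group, levels under about 5 TPM in MII differed up to several times between replicates, and RNA per cell was not used here.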
